A study of Mus musculus with 12 samples.

Results

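The genes described are 7 cysteine cathepsins (Ctss, Ctsb, Ctsc, Ctsh, Ctsk, Ctsl and Ctsz), 2 aspartyl cathepsins (Ctsd and Ctse) and Cst3, which encodes cystatin C, an inhibitor of the cysteine cathepsins. They were taken by symbol from the count table, where all 10 were found among 24956 gene symbols. All 10 passed the low count filter that left 12856 genes for testing. The 12 tumours profiled for RNA all came from PDA.69, a single pancreatic ductal adenocarcinoma line. The labels give it as KPC-derived, KPC being a mouse model of this cancer, and as Tcell low. Of the 12 tumours 6 grew in Alb-Cre+/+ STAT3f/f hosts, in which the albumin promoter drives Cre and so removes floxed Stat3 from hepatocytes, and 6 grew in WT hosts. The tumour cells are the same line in both, and the deletion is in the liver of the host, so the level of Stat3 in tumour RNA is no check of it. Host age and sex, and whether each tumour came from a separate mouse, are not given in the labels, so each p-value reflects the sample-to-sample spread alone, which may be technical. RNA came from scraped sections of fixed, paraffin-embedded tumour and was read near the 3' end of transcripts, which leaves counts independent of how long a transcript is.

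Cathepsins are proteases of the lysosome, made as inactive precursors and cut to the active form in its acid interior. In antigen-presenting cells they degrade engulfed protein, and cathepsin S cuts the invariant chain that blocks the groove of MHC class II molecules. In pancreatic tumours cathepsins are made by macrophages, by fibroblasts and by the cancer cells. Cystatins hold cysteine cathepsins in check, mostly outside the lysosome, and do not inhibit the aspartyl ones. The question put to these genes was which of them were higher, as Ctss was, when the host was Alb-Cre+/+ STAT3f/f.

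Ctss and Ctsk are neighbours on the plus strand of chromosome 3 (GRCm38, GENCODE release M21), Ctss at 95526786 to 95556403 and Ctsk at 95499256 to 95509362, with 17423 bases between them. Cst3 (148871722 to 148875692) and Ctsz (174427493 to 174439039) lie on the minus strand of chromosome 2. Ctsc (88278085 to 88310888, plus strand) and Ctsd (142375911 to 142388038, minus strand) lie on chromosome 7. Ctse is on chromosome 1 (131638306 to 131675505), Ctsh on chromosome 9 (90054152 to 90076089) and Ctsb on chromosome 14 (63122462 to 63145923), all on the plus strand, and Ctsl on chromosome 13 (64359337 to 64370890, minus strand). All 10 are protein-coding. The 3' end of Ctsb overlaps Fdft1 on the other strand, that of Ctsz overlaps Nelfcd by 10 bases on the other strand, and that of Ctsd lies within Gm49369, a gene of the same strand that is not in the count table. The labels do not say whether the counting used strand, so the values of Ctsb and Ctsz may hold reads of those genes. Strand cannot part reads of Ctsd from those of Gm49369, and how such reads were counted is not given. Ctss and Ctsl each hold a processed pseudogene on their own strand, Hmgb1-ps5 and Gm49230, away from the 3' end and not in the count table.

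RefSeq promoter windows (GRCm38.p6, 250 bases before to 50 after the annotated start) were at hand for 7 of the 10 genes, and 4 are shown because the results turn on these genes. Ctss and Cst3 rose, Ctsk is the neighbour of Ctss and was not called, and Ctsd is the abundant aspartyl cathepsin, not called either. Capitals mark matches on either strand to 4 letter patterns chosen after the values were seen. These were CACGTG, the core of the element bound by TFEB, a regulator of lysosomal genes, GAGGAA, a core bound by the myeloid factor PU.1, GAAA followed after any 2 bases by GAAA, the interferon-stimulated response element, and TTCNNNGAA, the site bound by STAT factors.
Ctss promoter, chr3:95526536-95526835, plus strand: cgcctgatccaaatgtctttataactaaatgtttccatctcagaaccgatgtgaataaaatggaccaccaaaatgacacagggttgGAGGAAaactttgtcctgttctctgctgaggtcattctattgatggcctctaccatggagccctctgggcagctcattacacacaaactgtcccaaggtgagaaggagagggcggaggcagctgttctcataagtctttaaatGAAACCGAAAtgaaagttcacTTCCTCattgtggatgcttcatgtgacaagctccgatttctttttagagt
Ctsk promoter, chr3:95498960-95499259, plus strand: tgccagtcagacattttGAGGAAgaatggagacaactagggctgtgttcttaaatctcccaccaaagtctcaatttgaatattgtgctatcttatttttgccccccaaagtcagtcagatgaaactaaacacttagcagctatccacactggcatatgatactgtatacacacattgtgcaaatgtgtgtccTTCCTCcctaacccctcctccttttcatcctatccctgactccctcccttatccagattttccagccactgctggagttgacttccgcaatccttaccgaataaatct
Cst3 promoter, chr2:148875463-148875762, minus strand: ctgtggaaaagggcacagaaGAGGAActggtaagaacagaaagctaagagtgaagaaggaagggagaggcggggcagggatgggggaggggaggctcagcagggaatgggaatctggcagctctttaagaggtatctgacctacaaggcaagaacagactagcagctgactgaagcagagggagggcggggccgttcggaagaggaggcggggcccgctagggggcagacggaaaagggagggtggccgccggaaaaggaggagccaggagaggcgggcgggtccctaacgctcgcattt
Ctsd promoter, chr7:142387778-142388077, minus strand: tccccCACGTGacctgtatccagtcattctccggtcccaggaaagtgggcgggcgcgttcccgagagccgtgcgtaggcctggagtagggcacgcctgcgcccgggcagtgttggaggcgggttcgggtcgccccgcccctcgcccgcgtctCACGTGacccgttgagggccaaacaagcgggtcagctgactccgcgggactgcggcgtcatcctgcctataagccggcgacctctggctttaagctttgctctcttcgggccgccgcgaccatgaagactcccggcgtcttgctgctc
The Ctss window held the interferon element once, starting 21 bases before the annotated start, and GAGGAA at 164 bases before it and, on the other strand, at the start itself. That element was in 3.44% of 32851 promoter windows and in 1 of the 7 windows of these genes. GAGGAA was in 28.3% of all windows, and among these genes in those of Ctss, Ctsc, Ctsk and Cst3. CACGTG, present in 7.15% of all windows, was found at 245 and at 98 bases before the start of Ctsd, and once in the Ctsl window. TTCNNNGAA, in 8.30% of all windows, was found in that of Ctsc. A match is a run of letters and says nothing of binding in these tumours.

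Library totals ran from 5691707 to 8085609 counts. The libraries stood apart in their content of normal exocrine pancreas. The 19 acinar genes found, which encode digestive enzymes, took 0.741 to 39.0% of counts in Alb-Cre+/+ STAT3f/f tumours and 0.536 to 20.4% in WT tumours (exact two-sided permutation p = 0.0325). The share was over 15% in Alb-Cre+/+ STAT3f/f 1, 2, 3 and 4 and in WT 5. Levels are library-scaled counts (CPM) after TMM scaling, under which the median gene had a log2 fold change of -0.00. With library totals alone the median gene fell by 0.41. All 9 markers of ductal and tumour epithelium had counts. All values are from bulk tissue, in which more cells of a type and more RNA per cell cannot be told apart.

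Ctss, the cysteine protease of antigen-presenting cells, and Cst3, the secreted inhibitor of its class, were the members that rose where the host was Alb-Cre+/+ STAT3f/f. The lowest, median and highest Ctss levels were 378, 490.1 and 530.2 CPM in Alb-Cre+/+ STAT3f/f tumours, against 230.4, 284 and 355 CPM in WT tumours. The groups did not overlap, all 6 Alb-Cre+/+ STAT3f/f values being the higher. Ctss averaged 469.6 ± 60.6 CPM in Alb-Cre+/+ STAT3f/f tumours, against 292 ± 45.1 CPM in WT tumours (SD, n = 6 each), a log2 fold change of 0.69 ± 0.12 (SE), or 1.61-fold. The adjusted p was 0.00308 by the quasi-likelihood test of edgeR, adjusted over all genes after Benjamini and Hochberg. Without the 5 acinar-rich tumours the Ctss log2 fold change was 0.81 ± 0.15 (edgeR adjusted p = 0.0200). With a term for the acinar score, a mean log2 level of the acinar genes, it was 0.78 ± 0.12 (edgeR adjusted p = 0.000926), in a fit that called 1.12% of all genes higher and 0.303% lower. With library totals in place of TMM it was 0.29 (edgeR adjusted p = 0.356), or 0.70 relative to the median gene.

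Cst3 had 575, 737 and 1044 CPM as lowest, median and highest level in Alb-Cre+/+ STAT3f/f tumours, against 374, 421 and 534 CPM in WT tumours. The groups did not overlap. The means were 790.2 ± 194 CPM in Alb-Cre+/+ STAT3f/f tumours, against 442 ± 70.6 CPM in WT tumours (SD, n = 6 each), a log2 fold change of 0.84 ± 0.15 (SE), or 1.79-fold, with an adjusted p of 0.00454 by the same edgeR test. Across all genes 2.23% were called higher and 0.747% lower, and 1.37% had non-overlapping groups with Alb-Cre+/+ STAT3f/f the higher. Cst3 was highest in Alb-Cre+/+ STAT3f/f 2 and 3, at 1003 and 1044 CPM, which held 37.0 and 39.0% acinar counts, and lowest of its group in Alb-Cre+/+ STAT3f/f 5, at 575 CPM with 0.741% acinar counts. Its slope on the acinar score beside genotype was 0.09 ± 0.02 on the log2 scale (edgeR adjusted p = 0.0635), and 2.64% of all genes had a called positive slope and 0.801% a negative one. With that score as a covariate Cst3 was higher by 0.62 ± 0.13 (edgeR adjusted p = 0.0147). Without the 5 acinar-rich tumours, with 2 Alb-Cre+/+ STAT3f/f and 5 WT tumours left, its log2 fold change was 0.57 ± 0.15 and the edgeR adjusted p was 0.0975, so the call was lost. The 2 Alb-Cre+/+ STAT3f/f tumours left, at 575 and 685 CPM, still lay above all 6 WT tumours. With library totals in place of TMM Cst3 had 0.36 (edgeR adjusted p = 0.214), or 0.77 relative to the median gene.

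**Figure D1:**
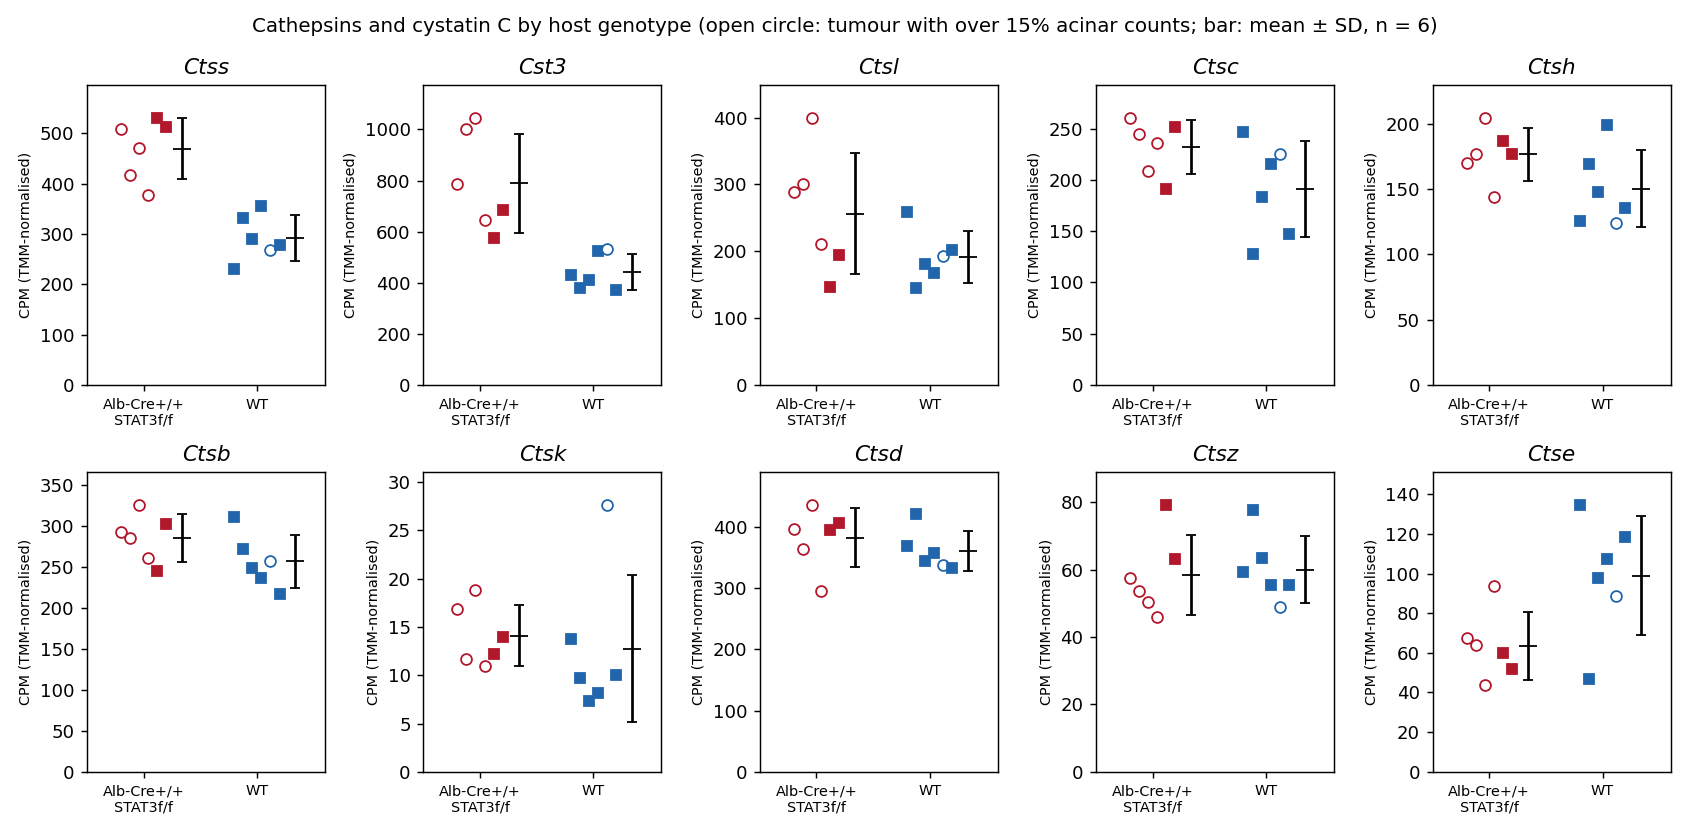
TMM-normalised CPM of each gene on the y axis in every tumour, Alb-Cre+/+ STAT3f/f left and WT right, with mean ± SD (n = 6 each) beside the points; open circles are tumours with over 15% acinar counts and filled squares the others. Ctss and Cst3 are the 2 panels in which the groups do not overlap.

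The other 8 genes did not pass the test, so 2 members rose and 0 fell, where 2.23 and 0.747% of all genes did, and 8 were not called (3 of 10 had an unadjusted edgeR p under 0.05, against 19.4% of all genes). The median log2 fold change over all 10 members, Ctss and Cst3 included, was 0.19, against -0.00 over all genes tested. Fold changes were above 1 for 8 members and below it for 2. DESeq2 called 2 members higher, again Ctss and Cst3, and 1 lower, Ctse, at 4.81% of all genes called higher and 2.24% lower.

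Ctsl is a lysosomal endopeptidase. Its lowest, median and highest levels were 146, 249 and 399 CPM in Alb-Cre+/+ STAT3f/f tumours, against 145, 187 and 258 CPM in WT tumours. The Alb-Cre+/+ STAT3f/f tumours above the WT range were 1, 2 and 3, with 24.4, 37.0 and 39.0% acinar counts, and the rest overlapped the WT range. The log2 fold change of Ctsl was 0.42 ± 0.22 (edgeR adjusted p = 0.316), and without the acinar-rich tumours it turned to -0.17 ± 0.20 (edgeR adjusted p = 0.854). Ctsb, an endopeptidase and carboxypeptidase linked to invasion, had 245, 289 and 326 CPM in Alb-Cre+/+ STAT3f/f tumours, against 217, 253 and 311 CPM in WT tumours. Only Alb-Cre+/+ STAT3f/f 3 lay above the WT range. Its log2 fold change was 0.15 ± 0.10 (edgeR adjusted p = 0.438).

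**Figure D2:**
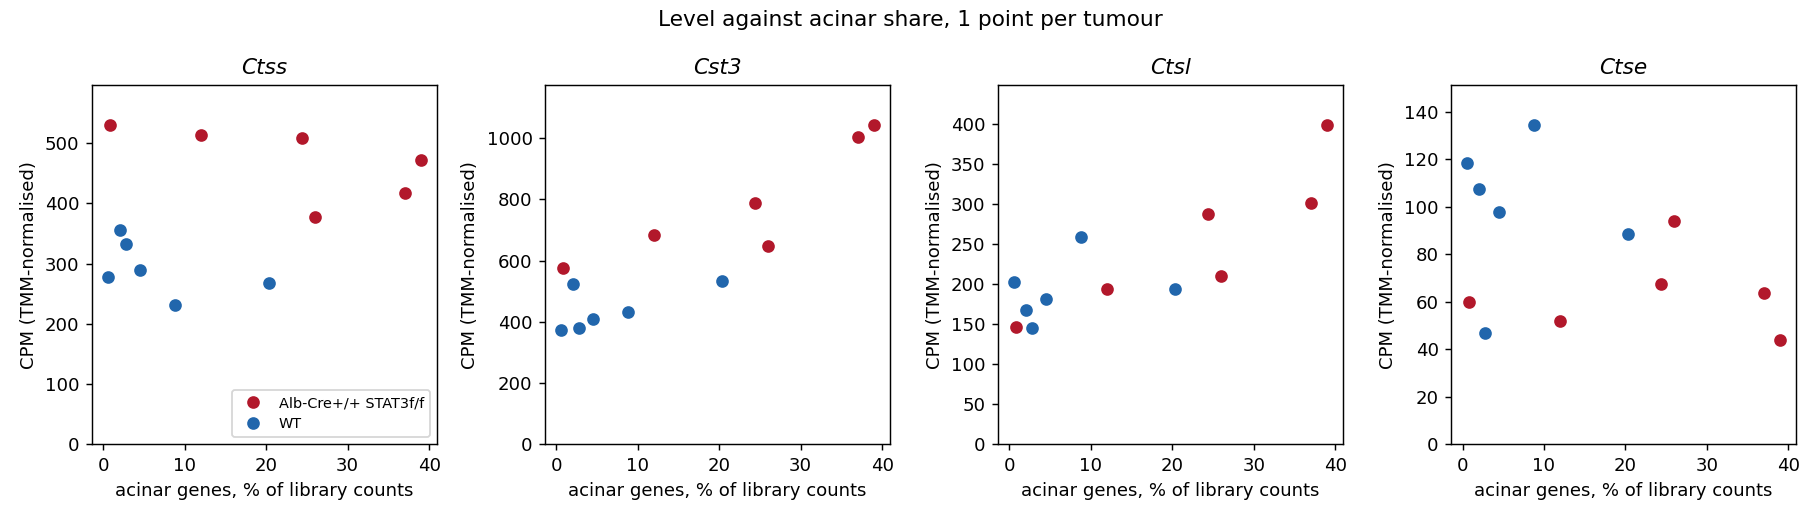
TMM-normalised CPM (y axis) of Ctss, Cst3, Ctsl and Ctse against the share of library counts taken by acinar genes (x axis, %), 1 point per tumour. Ctss separates the genotypes at low and high acinar shares, while Cst3 and Ctsl are highest in the Alb-Cre+/+ STAT3f/f tumours with the most acinar counts.

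Ctsc, the dipeptidyl peptidase that activates granzymes and neutrophil serine proteases, had 191, 240.0 and 260.1 CPM in Alb-Cre+/+ STAT3f/f tumours, against 127, 199.5 and 247 CPM in WT tumours. The groups overlapped, with 2 Alb-Cre+/+ STAT3f/f tumours above the WT range, and the log2 fold change was 0.28 ± 0.14 (edgeR adjusted p = 0.287). Ctsh, an aminopeptidase of lysosomes, had 143, 177 and 204 CPM in Alb-Cre+/+ STAT3f/f tumours, against 124, 141 and 199 CPM in WT tumours. Here 1 Alb-Cre+/+ STAT3f/f tumour exceeded the WT range, and the log2 fold change was 0.23 ± 0.12 (edgeR adjusted p = 0.297). Ctsz, a carboxypeptidase, had 46.0, 55.7 and 79.2 CPM in Alb-Cre+/+ STAT3f/f tumours, against 48.9, 57.4 and 77.7 CPM in WT tumours, ranges that overlapped almost fully. Its log2 fold change was -0.04 ± 0.14 (edgeR adjusted p = 0.908).

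Ctsk, the collagen-degrading cathepsin of osteoclasts and fibroblasts, was the least abundant member. It had 10.97, 13.1 and 18.9 CPM in Alb-Cre+/+ STAT3f/f tumours, against 7.36, 9.85 and 27.6 CPM in WT tumours, where WT 5 held the highest value of all. Its log2 fold change was 0.15 ± 0.28 (edgeR adjusted p = 0.820). Of 4 osteoclast markers tested 0 passed edgeR's test (0 at an unadjusted p under 0.05, 0 by DESeq2), with a summed level of 95.1 to 110.2 CPM in Alb-Cre+/+ STAT3f/f tumours, against 102 to 124 CPM in WT tumours. Of 10 fibroblast markers 1 passed, higher (as did 2.23% of all genes), with a summed level of 4441 to 7655 CPM in Alb-Cre+/+ STAT3f/f tumours, against 3381 to 6323 CPM in WT tumours. The part of either cell type in the level of Ctsk was not tested.

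The aspartyl cathepsins were not called by edgeR over all tumours, nor were the cysteine cathepsins other than Ctss. Ctsd, the main aspartyl protease of the lysosome, had 295, 396 and 436 CPM in Alb-Cre+/+ STAT3f/f tumours, against 332, 351 and 420.4 CPM in WT tumours. Of the Alb-Cre+/+ STAT3f/f tumours 1 lay above and another below the whole WT range, and the log2 fold change was 0.09 ± 0.10 (edgeR adjusted p = 0.692). Ctse, an aspartyl protease of gastric epithelium, pancreatic neoplasia and some immune cells, had 43.9, 61.8 and 93.9 CPM in Alb-Cre+/+ STAT3f/f tumours, against 46.8, 103 and 135 CPM in WT tumours. It was low in WT 2, at 46.8 CPM, and at least 88.6 CPM in the other 5 WT tumours, a level that of the Alb-Cre+/+ STAT3f/f tumours 4 alone reached. Ctse averaged 63.5 ± 17.1 CPM in Alb-Cre+/+ STAT3f/f tumours, against 98.9 ± 30.2 CPM in WT tumours (SD, n = 6 each), a log2 fold change of -0.64 ± 0.23 with an edgeR adjusted p of 0.147. It passed by DESeq2 (adjusted p = 0.0352) and by edgeR without WT 2 (adjusted p = 0.0159). Ctse was not called in the other 11 of 12 fits that left out 1 tumour. With a term for the acinar score it had -0.64 ± 0.28 and was not called either (edgeR adjusted p = 0.399). Of 4 gastric-type epithelial markers tested 0 passed edgeR's test (1 at an unadjusted p under 0.05, 1 higher by DESeq2), with a summed level of 192 to 2053 CPM in Alb-Cre+/+ STAT3f/f tumours, against 209 to 606 CPM in WT tumours. Of 9 ductal and tumour epithelium markers 2 fell and 0 rose (against 0.747 and 2.23% of all genes), with a summed level of 2548 to 3314 CPM in Alb-Cre+/+ STAT3f/f tumours, against 3485 to 4087 CPM in WT tumours. The part of epithelial content in the level of Ctse was not tested.

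**Figure D3:**
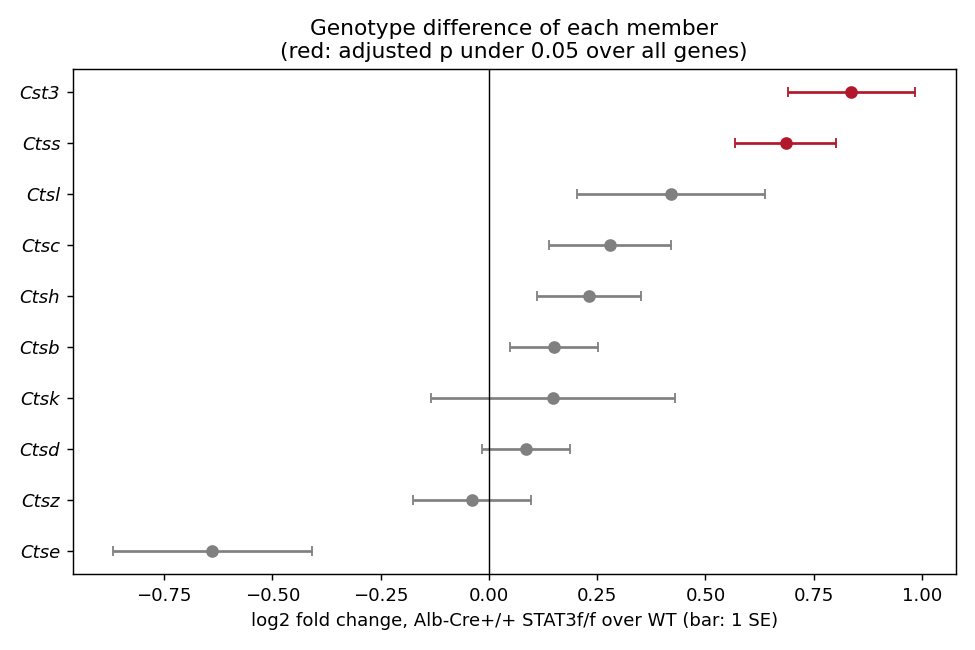
Log2 fold change of each gene, Alb-Cre+/+ STAT3f/f over WT, on the x axis with bars of 1 SE either way, genes down the y axis. Cst3 (0.84) and Ctss (0.69), in red, passed the edgeR test over all genes, and the other 8, in grey, did not, with Ctse lowest at -0.64.

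The rank of the transcripts differed between the hosts, as compared by 3' counts, which need no division by length. Cst3 had the highest mean in both groups, and exceeded the next gene in 6 of 6 Alb-Cre+/+ STAT3f/f tumours and 5 of 6 WT tumours. The exception was WT 2, with 379 CPM of Cst3 and 420.4 CPM of Ctsd. Ctss exceeded Ctsd in 6 of 6 Alb-Cre+/+ STAT3f/f tumours, and Ctsd exceeded Ctss in 6 of 6 WT tumours. In WT 4 the 2 were almost level, at 358 CPM of Ctsd and 355 CPM of Ctss. How reads that Ctsd shares with Gm49369 were counted is not given, which may bear on the level of Ctsd. Ctss made up 24.3 ± 2.77% of the summed counts of the 9 cathepsins in Alb-Cre+/+ STAT3f/f tumours and 18.2 ± 2.84% in WT tumours (SD, n = 6 each). Ctsd made up 19.7 ± 1.33% in Alb-Cre+/+ STAT3f/f tumours, against 22.3 ± 1.98% in WT tumours, and Ctse 3.36 ± 1.21% in Alb-Cre+/+ STAT3f/f tumours, against 6.12 ± 1.80% in WT tumours. The 9 cathepsins together had 1674 to 2157 CPM in Alb-Cre+/+ STAT3f/f tumours, against 1496 to 1748 CPM in WT tumours, so the ranges overlapped. Lower in the order, Ctsl and Ctsc could not be placed against each other, each being the higher in 3 of 6 tumours of either group.

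Whether a member moved less than Ctss was tested on the log2 ratio of each gene to Ctss within a tumour, which does not depend on library scaling. In this fit 68.5% of all genes were called lower relative to Ctss and 0.529% higher, and of the 9 other members 5 were called lower, a share below that of all genes. Cst3 was not shown to differ from Ctss. Its log2 ratio to Ctss averaged 0.73 ± 0.44 in Alb-Cre+/+ STAT3f/f tumours, against 0.60 ± 0.30 in WT tumours, a difference of 0.13 ± 0.18 (SE, limma adjusted p = 0.535), which turned to -0.17 with the acinar score as a covariate and to -0.25 without the acinar-rich tumours. Ctsd fell behind, at -0.30 ± 0.12 in Alb-Cre+/+ STAT3f/f tumours, against 0.31 ± 0.21 in WT tumours, a difference of -0.61 ± 0.14 (limma adjusted p = 0.000740). The ranges of the Ctsd ratio did not overlap, nor did those of Ctsh and Ctsz, and the exact two-sided permutation p was 0.00216 for each, the smallest that the relabellings of 12 tumours can give. Such a gap below WT was seen in 26.9% of all genes. Ctss itself had no overlap between the groups, so a gene at like levels in both hosts falls behind it. The p-values of the ratios thus reflect the rise of Ctss as well as any move of the member. The difference was -0.74 ± 0.16 for Ctsz (limma adjusted p = 0.000366) and -0.44 ± 0.14 for Ctsh (0.00627). It was -0.53 ± 0.16 for Ctsb (limma adjusted p = 0.00640) and -1.29 ± 0.32 for Ctse (0.00304).

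For 3 cysteine cathepsins a smaller rise than that of Ctss was not shown over all tumours. The difference to Ctss was -0.38 ± 0.20 for Ctsc (limma adjusted p = 0.0947), -0.42 ± 0.29 for Ctsk (0.198) and -0.32 ± 0.28 for Ctsl (0.312). Leaving out 1 tumour moved them to as little as -0.23 for Ctsc (without WT 1), -0.15 for Ctsk (without WT 5) and -0.14 for Ctsl (without Alb-Cre+/+ STAT3f/f 5). It moved them to as much as -0.53 for Ctsc, which then passed (without WT 2, limma adjusted p = 0.0121), -0.58 for Ctsk (without WT 4) and -0.46 for Ctsl (without Alb-Cre+/+ STAT3f/f 3), neither of which passed. With a term for the acinar score all 3 were called lower than Ctss, Ctsc at -0.62, Ctsk at -0.76 and Ctsl at -0.69 (limma adjusted p = 0.00445, 0.0153 and 0.00489), which brought the count to 8 of 9. Over the alternatives other than leaving out 1 tumour, 7346 to 9672 genes were called lower relative to Ctss, against 8811 in the main fit. Ctsl was also called without the acinar-rich tumours, at -0.98 (limma adjusted p = 0.00783).

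**Figure D4:**
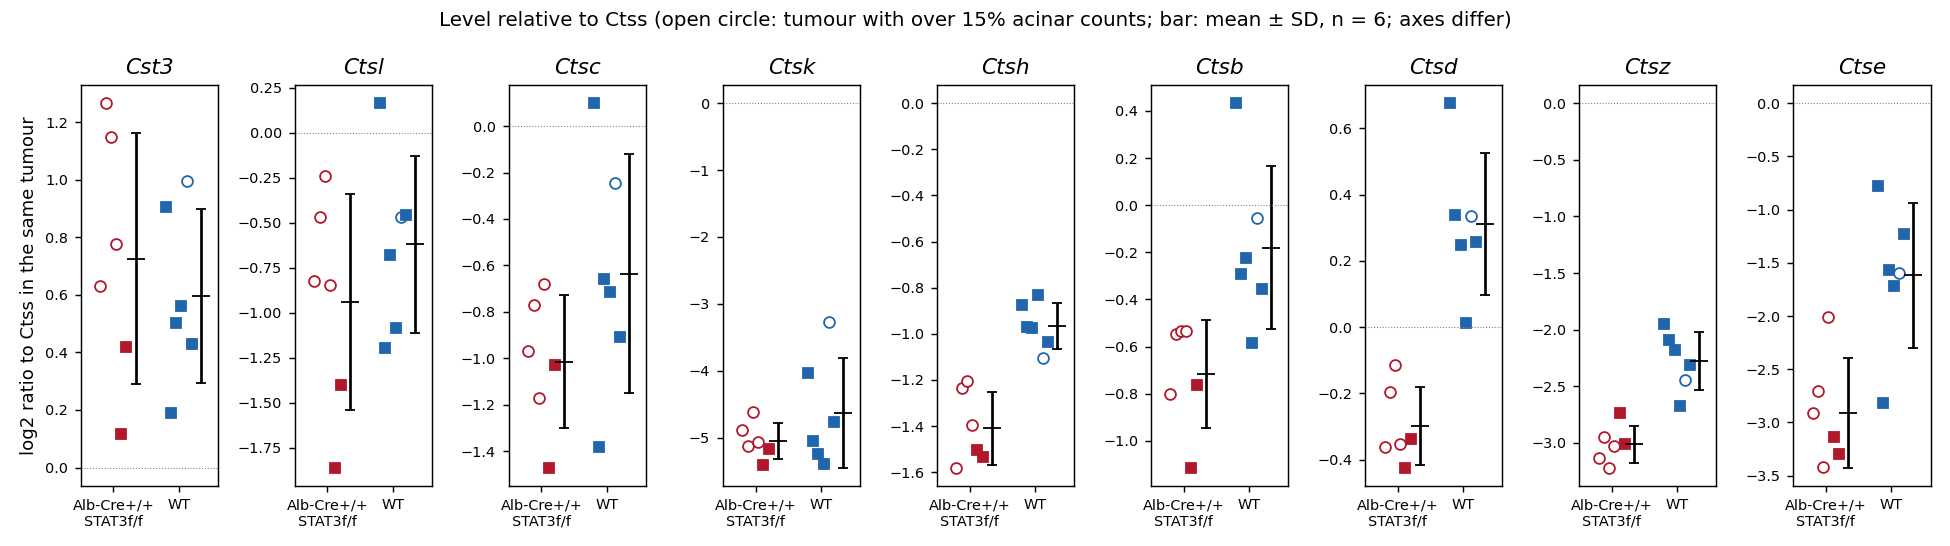
Log2 ratio of each gene to Ctss in the same tumour (y axis, scales differ between panels), Alb-Cre+/+ STAT3f/f left and WT right, with mean ± SD (n = 6 each); open circles are tumours with over 15% acinar counts. The groups do not overlap for Ctsh, Ctsd and Ctsz, and the Cst3 ratio averages 0.73 in Alb-Cre+/+ STAT3f/f tumours, against 0.60 in WT tumours.

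Immune marker levels were higher in the same group of hosts as Ctss. The pan-leukocyte score, the mean log2 CPM of 12 markers, averaged 4.98 ± 0.20 in Alb-Cre+/+ STAT3f/f tumours, against 4.08 ± 0.32 in WT tumours (SD, n = 6 each), with an exact two-sided permutation p of 0.00216. Of the 12 markers 7 rose and 0 fell, at a summed level of 537 to 781 CPM in Alb-Cre+/+ STAT3f/f tumours, against 286 to 491 CPM in WT tumours. Of 14 macrophage markers 7 rose and 0 fell, at 1950 to 2896 CPM in Alb-Cre+/+ STAT3f/f tumours, against 1373 to 1971 CPM in WT tumours, and no marker of either list was at 0. The edgeR fit of genotype called 2.23% of all genes higher and 0.747% lower. With the leukocyte score as a term beside genotype, the slope of Ctss was 0.30 ± 0.23 log2 units per unit of score (edgeR adjusted p = 0.867) and that of Cst3 0.49 ± 0.29 (0.794). The genotype difference left beside the score was 0.41 ± 0.24 for Ctss and 0.39 ± 0.29 for Cst3 (edgeR adjusted p = 1.00 for both). In that fit 0 of 10 members had a called slope or genotype difference (0 and 0 at an unadjusted p under 0.05). Only 1 gene of 12856 (0.00778%) had a called slope, with 867 at an unadjusted p under 0.05. Genotype and score differ together here, and beside the score 1 gene (0.00778%) had a called genotype difference.

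The genes whose level stayed closest to that of Ctss are known from phagocytes and other leukocytes. Over the 12 tumours the SD of the log2 ratio to Ctss was 0.11 for Ncf1 and 0.16 for Cybb, subunits of the phagocyte NADPH oxidase. It was 0.13 for C1qb and 0.15 for C1qa, complement subunits made by macrophages, and 0.15 for Gpr65, a proton-sensing receptor of leukocytes. These were the 5 smallest of 10590 genes with a mean of at least 5 CPM, whose median was 0.51. Of the cathepsins Ctsh came nearest, at 0.26 and rank 77, followed by Ctsd at 0.36 and rank 689, while Cst3 had 0.36 and rank 786. Ctse, at 0.89 and rank 10211, was the most distant. The log2 fold changes of the 5 closest genes were 0.75 for Ncf1, 0.60 for C1qb, 0.51 for C1qa, 0.67 for Gpr65 and 0.84 for Cybb. Gpr65 was not called by edgeR (adjusted p = 0.0504) but was by DESeq2 (0.0145). C1qa (edgeR adjusted p = 0.0445) lost its call in 9 of the 12 fits that left out 1 tumour. The closeness to Ctss is a description with no test, since genes picked for a steady ratio to Ctss differ between the hosts much as Ctss does.

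Other cathepsins were scarce. Of 14 further cathepsin genes 4 were tested and 0 passed edgeR's test (0 at an unadjusted p under 0.05, 0 by DESeq2). Ctsw, of cytotoxic lymphocytes, had a log2 fold change of 0.66 ± 0.34 and Ctso 0.44 ± 0.36. Of the other cystatins and related proteins 6 of 20 were tested, in a fit that called 2.23% of all genes higher. Cst7, an inhibitor of cathepsin C in immune cells, had 79 counts in Alb-Cre+/+ STAT3f/f tumours, against 69 in WT tumours, with a log2 fold change of 0.52 ± 0.49. Cstb, the intracellular inhibitor stefin B, had 149.7 ± 22.5 CPM in Alb-Cre+/+ STAT3f/f tumours, against 134 ± 18.4 CPM in WT tumours, a log2 fold change of 0.16 ± 0.11 (edgeR adjusted p = 0.462). In the list 1 gene rose, Fetub, a fetuin that inhibits metalloproteases of the astacin type, by 1.66 ± 0.35 (edgeR adjusted p = 0.0221). That call was lost without WT 3, 4 or 6, and likewise without Alb-Cre+/+ STAT3f/f 1 (edgeR adjusted p = 0.0599, 0.0576, 0.0579 and 0.0508) and with a term for the acinar score (1.46, adjusted p = 0.0896).

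Of 8 other lysosomal peptidases, counting a thiol reductase, 3 rose and 0 fell, with a median log2 fold change of 0.49. Over all genes 2.23% rose and 0.747% fell. Napsa, an aspartyl protease, rose by 1.07 ± 0.19 (edgeR adjusted p = 0.00458). Ifi30, the lysosomal thiol reductase GILT that unfolds antigens for the cathepsins, had 206 ± 22.0 CPM in Alb-Cre+/+ STAT3f/f tumours, against 130 ± 33.1 CPM in WT tumours, a rise of 0.67 ± 0.14 (edgeR adjusted p = 0.0166), with no overlap between the groups. The Ifi30 call was lost without Alb-Cre+/+ STAT3f/f 1 (0.64, edgeR adjusted p = 0.0504), with a term for the acinar score (0.61, 0.0546) and without the acinar-rich tumours (0.86, 0.0750). Prcp, a carboxypeptidase, rose by 1.24 ± 0.28 (edgeR adjusted p = 0.0209), but not without WT 1, WT 6 or else Alb-Cre+/+ STAT3f/f 2 (0.0518, 0.0572 and 0.0620), with a term for the acinar score (0.81, adjusted p = 0.153) or without the acinar-rich tumours (0.88, adjusted p = 0.337). Lgmn, the asparaginyl endopeptidase that processes several cathepsins, had 45.3 ± 18.9 CPM in Alb-Cre+/+ STAT3f/f tumours, against 30.0 ± 13.8 CPM in WT tumours, and was not called (log2 fold change 0.59 ± 0.38, edgeR adjusted p = 0.437).

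The edgeR fit called 2.23% of all genes higher, and 19.4% had an unadjusted p under 0.05 in either direction. The list of the invariant chain, which cathepsin S cuts, and its class II partners had 7 tested genes. All 7 had a positive log2 fold change, with a median of 0.78, and 6 had an unadjusted p under 0.05, but 1 passed, H2-DMa, a chain of the peptide-loading chaperone, by 1.06 ± 0.22 (edgeR adjusted p = 0.0191). With a term for the acinar score it had 1.08 (edgeR adjusted p = 0.0699), and without the acinar-rich tumours 1.26 (0.229). Cd74, the invariant chain, had 914 ± 141 CPM in Alb-Cre+/+ STAT3f/f tumours, against 588 ± 228 CPM in WT tumours. Its log2 fold change was 0.64 ± 0.22 (edgeR adjusted p = 0.125), and it was called without WT 2 (0.0269) and by DESeq2 (adjusted p = 0.0248). Among substrates and partners of cathepsins, Unc93b1, which carries the Toll-like receptors that cathepsins cut, rose by 0.77 ± 0.16 (edgeR adjusted p = 0.0117), and without the acinar-rich tumours had 0.71 (0.0552). The other 5 tested did not pass.

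Most other lysosomal genes did not pass the test, nor did most of all genes, of which 2.23% rose and 0.747% fell. Of 26 glycosidases, lipases and activators 2 rose and 0 fell, with a median log2 fold change of -0.01. The 2 were Gm2a, the activator of ganglioside breakdown, at 0.59 ± 0.11 (edgeR adjusted p = 0.00714), and Man2b1, a mannosidase, at 0.47 ± 0.11 (0.0207, with 0.0570 without WT 3, 0.0574 without Alb-Cre+/+ STAT3f/f 1 and, at a log2 fold change of 0.41, 0.230 without the acinar-rich tumours). Of 14 membrane genes 1 rose, the leukocyte gene Laptm5, by 0.61 ± 0.12 (edgeR adjusted p = 0.0113), with a median of 0.04. Of 9 genes of mannose 6-phosphate tagging and sorting 0 passed edgeR's test (0 at an unadjusted p under 0.05, 0 by DESeq2). M6pr, a receptor that carries hydrolases to lysosomes, had a log2 fold change of 0.30 ± 0.20, and Sort1 -0.20 ± 0.15. Of 13 proton pump genes 0 passed (2 at an unadjusted p under 0.05, 0 by DESeq2), with a median of -0.08. Atp6v0a1 had a log2 fold change of -0.32 ± 0.11 (edgeR adjusted p = 0.116, and 0.0445 without Alb-Cre+/+ STAT3f/f 5) and Atp6v1b2 -0.25 ± 0.11 (0.231).

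Among 9 regulators of lysosomal genes 2 rose and 0 fell, against 2.23 and 0.747% of all genes. Irf8, a factor of monocytes and dendritic cells, rose by 0.78 ± 0.16 (edgeR adjusted p = 0.0117), and without the acinar-rich tumours had 0.79 (0.134). Mitf rose by 0.90 ± 0.21 (edgeR adjusted p = 0.0248). The Mitf call was lost without WT 1, 3 or 6, and likewise without Alb-Cre+/+ STAT3f/f 1, 2 or 3 (edgeR adjusted p = 0.0556 to 0.0705), with a term for the acinar score (0.65, adjusted p = 0.171) and without the acinar-rich tumours (0.61, adjusted p = 0.434). The other 7, with Tfeb and Tfe3 among them, did not pass.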

How the data were processed

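The authors deposited whole-number counts per gene symbol, with no normalisation, for 12 QuantSeq 3' mRNA-Seq FWD libraries, per the labels. The submitters' processing notes name STAR and mm10. Their versions, and the counting tool, annotation, strand setting and filters behind the table, are not given in the labels, and no molecular identifiers are stated. Of 24982 entries, 26 with a date number for a symbol were left out (0.0690 to 0.166% of counts). GENCODE M21 held 1 gene for 97.9% of the symbols. The members and gene lists were chosen with earlier results of these data known.

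Counts were filtered by filterByExpr (minimum count 10, total 15, proportion 0.7), scaled by TMM (factors 0.578 to 1.29) and tested in R 4.3.3 with edgeR 4.0.16, robust quasi-likelihood, genotype as the sole term, two-sided, Benjamini-Hochberg over all 12856 genes, threshold 0.05. SE is the log2 fold change over the root of F. Log2 ratios to Ctss (prior count 2) were fitted by limma 3.58.1 with trend and robust settings. The leukocyte fit added that score as a term. DESeq2 1.42.0 was an alternative. Others were scaling, filters, acinar content, left-out tumours and a block on tumour number. Named genes were all members, up to 3 called genes of each pathway list (or the 2 with the smallest p), the 5 closest to Ctss (no test), and Cd74, Cst7, Lgmn, Cstb and Ifi30. No 2 libraries were alike within sampling noise (chi-square per gene at least 12.6 over 66 pairs). The tests were tried on simulated counts. The genotype test recovered 25.4% of 1.5-fold and 91.0% of 2-fold changes, and the ratio test 7.46 and 80.6%. A gene that was not called may therefore still differ by a small amount. Simulated Ctss was left unchanged, whereas Ctss rose in these data, so the rates of the ratio test may not hold here. The precision of each value depends on the counts of its gene and on the spread between tumours. Libraries held 5691707 to 8085609 counts.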

Additional observations from a re-analysis of the deposited data

Results flagged for a closer look

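Ctsk in WT tumours had 1 sample far from the others. WT 5 had 27.6 CPM, and the next highest WT tumour 13.8 CPM, so that this gap was 0.684 of the range of the group. Without WT 5 the log2 fold change of Ctsk was 0.52 (edgeR adjusted p = 0.162), against 0.15 with all tumours. Leaving out any other single tumour gave 0.030 (without WT 3) to 0.21 (without Alb-Cre+/+ STAT3f/f 4), with 0.039 without WT 4 and 0.051 without Alb-Cre+/+ STAT3f/f 3. Of the 20 groups of values looked at, 1 was so marked, and chance marks about 1 in 20.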

How the results depend on the processing

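Ctss and Cst3 stayed higher in all alternatives, and both stayed called in all that leave out 1 tumour (log2 fold change 0.62 to 0.74 for Ctss and 0.74 to 0.91 for Cst3). With library totals in place of TMM, a setting chosen after seeing the data, the median gene fell by 0.41. Ctss then had 0.29 (relative to the median gene 0.70) and Cst3 0.36 (0.77), and neither was called, while Ctse was called at -1.05. There Ctsb had -0.28, Ctsc -0.13, Ctsd -0.33, Ctsh -0.20, Ctsk -0.23, Ctsl -0.10, Cstb -0.28 and M6pr -0.18, all reversed in sign. With totals 32 genes were higher, 0 members higher and 1 lower. Cst3 was not called without the acinar-rich tumours (0.57), which left 1 member higher. There Ctsl (-0.17), Ctsz (0.19) and M6pr (-0.17) changed sign, as did Ctsk (-0.060) and Ctsz (0.10) with the acinar score as a covariate. The Cst3 ratio to Ctss changed sign in both settings (-0.17 with the score, -0.25 without the tumours). DESeq2 called Ctse (-0.65), 1 member lower.

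Genes higher and lower between genotypes numbered 287 and 96. They were 618 and 288 by DESeq2, 144 and 39 with the acinar score, 83 and 14 without acinar-rich tumours, and 141 to 471 and 37 to 222 when 1 tumour was left out. Higher genes numbered 187, 169, 182 and 157 with WT 1, 3, 4 and 6 left out, and 141, 186 and 471 with Alb-Cre+/+ STAT3f/f 1, 2 and 5 left out. Lower genes numbered 57, 45, 63, 152 and 63 with WT 1, 3, 4, 5 and 6 left out, and 37, 52, 60, 197 and 222 with Alb-Cre+/+ STAT3f/f 1, 2, 3, 4 and 5 left out. Leaving out 1 tumour gave 0 to 1 members lower, Ctse from -0.79 to -0.53 and Ctsz from -0.15 to 0.046 (positive without WT 2, at 0.046, and without Alb-Cre+/+ STAT3f/f 4, at 0.021). Genes called higher relative to Ctss numbered 68, 34 with a filter of 10 CPM in 6 tumours, 24 with the acinar score, 33 without acinar-rich tumours and 36 to 167 when 1 tumour was left out. Genes called lower relative to Ctss numbered 8811, with 7890 to 9126 when 1 tumour was left out and 7346 to 9672 over the other alternatives. Members lower relative to Ctss numbered 5, and 8 with the acinar score. In the leukocyte fit 1 gene had a slope and 1 a genotype difference. These were 8 and 2 with the acinar score, 5 slopes with that filter, 3 differences with the macrophage score, and 0 to 5 and 1 to 2 when 1 tumour was left out. The causes were not tested.

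Tumour numbers did not pair the samples: deviations of same-numbered tumours correlated at -0.51 to 0.13, and 1 of 6 was closest to its own number. With the replicate block 145 genes were higher and 44 lower, Ctss had 0.69 and Cst3 0.82 (both called), and Ctsh was not called relative to Ctss (-0.44). Ifi30, Prcp, H2-DMa, Man2b1, Irf8, Mitf, Unc93b1 and C1qa were not called with the block.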

Other observations

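Markers of further cell types were tested in the same edgeR fit of genotype, which called 2.23% of all genes higher and 0.747% lower. Of 9 dendritic cell markers 3 rose and 0 fell, at a summed level of 166 to 250.3 CPM in Alb-Cre+/+ STAT3f/f and 90.0 to 166 CPM in WT tumours. Of 8 T cell markers tested 1 rose, at 48.7 to 96.1 CPM in Alb-Cre+/+ STAT3f/f and 15.01 to 46.4 CPM in WT tumours. Of 6 neutrophil markers tested 0 passed (2 at an unadjusted p under 0.05, 0 by DESeq2), of 5 B cell markers 0 (5 unadjusted, 1 by DESeq2), of 6 endothelial markers 0 (1 unadjusted, 0 by DESeq2) and of 6 hepatocyte markers 0 (0 unadjusted, 0 by DESeq2). All 19 acinar genes had a positive fold change and 0 passed (6 unadjusted, 0 by DESeq2).

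Cst3 counts per count of the 9 cathepsins together averaged 0.406 ± 0.0813 in Alb-Cre+/+ STAT3f/f tumours and 0.274 ± 0.0406 in WT tumours (SD, n = 6 each), a description with no test. The ranges overlapped, at 0.311 to 0.523 in Alb-Cre+/+ STAT3f/f tumours and 0.237 to 0.339 in WT tumours. The highest values of each group were in acinar-rich tumours, Alb-Cre+/+ STAT3f/f 2 and 3 and WT 5.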
